A study of Zea mays with 157 samples.

Results

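The F1 hybrid of the maize inbreds B73 and Mo17 carried 1465 circRNAs that recurred in its tissues and were listed for neither parent. They were chosen by their measured values, as identifiers of the F1 table that stand in neither the B73 nor the Mo17 table and lie above 0 in 3 or more of the 26 F1 libraries. The F1 table held 79239 circRNAs, of which 36237 were in neither parental table. Of those, 30892 were found in 1 F1 library and 3880 in 2, so the recurring ones were 4.04% of the circRNAs listed for F1 alone. They were also 7.25% of the 20215 circRNAs found in 3 or more F1 libraries. The other 18750 recurring circRNAs were listed in a parent and served as the set for comparison.

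A circular RNA (circRNA) forms when a splice donor joins an acceptor that lies upstream of it, so that the spliced segment of the host transcript closes into a ring. It is detected by reads that cross this back-splice junction. One host gene can give several rings that share an acceptor or a donor, usually beside its linear mRNA, and rings have no free ends, which makes them resistant to exonucleases. In plants many circRNAs are low in abundance and are seen in a few tissues.

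Each library came from greenhouse-grown maize without special treatment. The groups used here were the F1 of B73 and Mo17 and the inbred parents B73 and Mo17, with 26 tissues each and 1 circRNA and 1 mRNA library per tissue. The F1 circRNA libraries comprised 11 leaf libraries (husk leaf, ear leaf, the third leaf at V3, and the first leaf at V3, topmost leaf at V3, and tip and base of the stage 2 leaf at V5, each of these 4 sampled with suffix L and suffix N), 9 meristem and inflorescence libraries (shoot apical meristem at V1, V3 and V4, inflorescence, ears of 2 mm, 5 mm and 1 cm, tassels of 2 mm and 1 cm) and 6 libraries of root, stem and kernel. Per the labels' protocols, 3 separate extractions per tissue, each from several plants, were combined equally into its library. The files thus hold no spread between plants, and p-values rest on that between tissues. The sources used here do not say what the suffixes stand for. The L and N libraries of a leaf share its position, so p-values over leaf libraries may be too small. In such whole-organ samples, fewer cells of a type and less RNA per cell cannot be told apart.

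Values are RPM, the junction reads of a circRNA scaled to the reads of its library, as the authors deposited them. Taking the smallest value of a library as 1 read, the F1 libraries had an implied depth of 10161719 to 20234573 reads for circRNAs placed on B73 and 10040682 to 19935667 for those placed on Mo17. The 2 scales differed in all 26 F1 libraries, by 0.0519% to 12.2%. The deposited list of circRNAs places each identifier on the B73 genome, on the Mo17 genome or on both. The B73 table held no identifier placed on Mo17 only, and the Mo17 table none placed on B73 only. A circRNA of a single genome could thus be matched in the 26 libraries of 1 parent only, and one placed on both genomes in the libraries of both. Placement says on which genome the junction was listed, and which allele of F1 was transcribed was not tested.

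Of the 1465 circRNAs in neither parent, 797 were placed on B73 only, 544 on Mo17 only and 124 on both genomes. That makes 54.4% B73 only, 37.1% Mo17 only and 8.46% on both. Among the recurring circRNAs listed in a parent, 44.5% were placed on B73 only, 31.3% on Mo17 only and 24.1% on both. Positions are 1-based, from the deposited list, whose starts count from 0. Those on B73 follow the build B73 RefGen_v4 named in the submitters' processing notes, and the Mo17 build was not given in the sources used here. The circRNAs lay on all 10 chromosomes of both genomes, with 3 on Mo17 scaffolds and none on an organelle genome. On B73, chromosome 1 held 16.4% of those placed there, against 15.9% of all recurring F1 circRNAs placed there. The plus strand held 752 and the minus strand 713. The host genes are given by identifier, since the sources used here gave no gene names for them.

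Most of these circRNAs were sparse. The rule used breadth, so the following values describe the choice and are not tested. Of the 1465, 898 were found in exactly 3 libraries (61.3%) and 298 in 4 (20.3%), while of the circRNAs listed in a parent 23% were found in exactly 3. Only 45 were found in 10 or more libraries. Those just inside the limit, in 3 libraries, had a median mean level of 0.00870 RPM and a median of 3 implied reads over all F1 libraries. Those just outside it, in 2 libraries, had 0.00548 RPM and 2.00 reads.

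Levels were low as well. The mean over the 26 F1 libraries had a median of 0.0103 RPM over the circRNAs in neither parent and 0.0213 RPM over those listed in a parent, with a highest mean of 1.03 RPM against 74.3 RPM. Of the values above 0 of B73-only circRNAs in neither parent, 71.8% stood at 1 read, against 38.1% for B73-only circRNAs listed in a parent. For Mo17-only circRNAs it was 68% against 40%. A mean of 0.1 RPM or more was reached by 14 of the 1465. The 10 highest supplied 13.6% of the summed mean RPM of the whole set, and the highest one, Zmcirc093464, alone 4.48%.

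The depth of the parental libraries bounds what absence from their tables shows. Over its 26 libraries B73 had 390002444 implied reads and Mo17 408034237, so 3 reads, the limit that a count of 0 allows, corresponded to 0.00769 RPM in B73 and 0.00735 RPM in Mo17. These limits cover counting error only. All 1341 circRNAs of a single genome lay above that level when the F1 libraries were pooled, as a rule of 3 libraries nearly ensures at these depths, but the median stood at 1.39 times it. At least 10 times the level was reached by 24 of them, 8 on B73 only and 16 on Mo17 only. For most of the set a parental level equal to that in F1 would thus have given only a few reads.

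**Figure D1:**
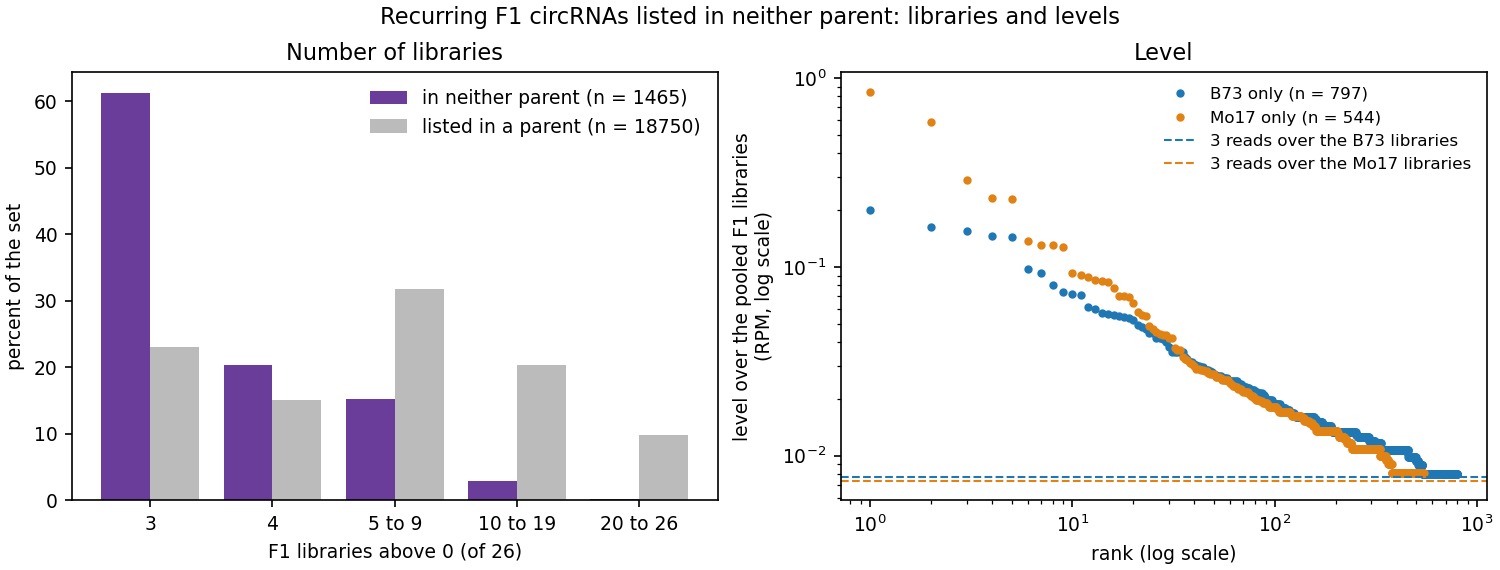
Left, percent of the circRNAs in neither parent (n = 1465, purple) and of those listed in a parent (n = 18750, grey) by the number of F1 libraries above 0, with the purple bars tallest at 3 libraries, 61.3%. Right, level over the pooled F1 libraries in RPM against rank, both axes on a log scale, for circRNAs of a single genome, with dashed lines at the level of 3 reads over the 26 libraries of the matching parent, which most points lie just above.

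The broadest of these circRNAs were mostly placed on Mo17. Of the 45 found in 10 or more libraries, 28 were placed on Mo17 only, 16 on B73 only and 1 on both genomes. Among circRNAs listed in a parent the order was the opposite. At 10 to 19 libraries 1151 of those were on Mo17 only and 1757 on B73 only, and at 20 to 26 libraries 529 and 825. Of the 10 in the most libraries, 8 were placed on Mo17 only and 2 on B73 only. Since the choice used presence in F1 libraries, these counts are a description.

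Zmcirc083684 was in more F1 libraries than any other, 24 of 26. It spans 1650 bp of host Zm00014a006641 on Mo17 chromosome 7, from 15264196 to 15265845. It ranged from 0 over a median of 0.124 to 0.240 RPM in the 11 leaf libraries, and from 0.0592 over 0.134 to 0.274 RPM in the 9 meristem and inflorescence libraries. The groups overlapped, and the difference did not pass the test (log2 difference -0.33 ± 0.37 SE, limma adjusted p = 0.482). Its level over the pooled F1 libraries, 0.131 RPM, was at least 17.8-fold higher than in Mo17, with 3 reads over the Mo17 libraries as the floor. The tables of the lines were scaled separately and absence from the parent was part of the choice, so such folds are descriptions. The host gave 7 other circRNAs in Mo17, which together averaged 0.0229 RPM, and the highest of them, Zmcirc092245, was in 2 Mo17 libraries.

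Zmcirc081583, found in 20 libraries, was a ring of 13922 bp from Zm00014a024351 on Mo17 chromosome 4, 67838395 to 67852316. In leaf it ranged from 0 over a median of 0 to 0.686 RPM, the last in husk leaf, and in meristem and inflorescence from 0.518 over 0.917 to 1.64 RPM, the last in the 1 cm tassel. Husk leaf was the only leaf library above the lowest meristem and inflorescence library. The circRNA was lower in leaf, with a log2 difference of -3.05 ± 0.45 SE (limma adjusted p = 4.06e-07). Its acceptor and its donor were each used by other circRNAs of this host in Mo17. The host gave 8 of these, summing to a mean of 19.4 RPM, and the highest, Zmcirc081585, averaged 11.2 RPM and was in all 26 Mo17 libraries. This host has a paired B73 gene, Zm00001d050134, and its F1 mRNA was lower in leaf (log2 difference -0.51 ± 0.18 SE, limma adjusted p = 0.0156). Over the pooled libraries the F1 level of Zmcirc081583 was at least 79.9-fold higher than in Mo17.

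Among 3 further circRNAs found in 19 libraries, the first was higher in leaf. Zmcirc082545 (356 bp, Zm00014a012833, Mo17 chromosome 1, 5719367 to 5719722) was above 0 in all 11 leaf libraries, from 0.140 over a median of 0.398 to 1.01 RPM, and in 3 of 9 meristem and inflorescence libraries, up to 0.147 RPM. Its log2 difference was 2.58 ± 0.39 SE. It entered the organ comparison only with the help of leaf, so this is a description with no test. Its host mRNA did not pass (limma adjusted p = 0.231). F1 mRNA is given in scaled units, the deposited values, whose unit is not named, after median-ratio scaling between libraries. This host stood at 5.22 ± 2.01 scaled units in the 11 leaf libraries (SD) and 6.04 ± 1.21 in the 9 meristem and inflorescence libraries (SD). Zmcirc082590 (4877 bp, Zm00014a011991, Mo17 chromosome 1, 37683515 to 37688391) reached 0.325 RPM in leaf, with a median of 0, and 0.572 RPM in meristem and inflorescence, with a median of 0.294. It was lower in leaf by limma (log2 difference -1.70 ± 0.45 SE, adjusted p = 0.00186), as was its host mRNA (-1.22 ± 0.14 SE, adjusted p = 1.73e-07).

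Zmcirc061603 had the highest mean of the B73-only circRNAs, 0.189 RPM. It spans 16530 bp of Zm00001d029272 on B73 chromosome 1, 64450511 to 64467040, a host with 17 other circRNAs in B73. Leaf values ran from 0 over a median of 0.0778 to 0.246 RPM, and meristem and inflorescence values from 0 over 0.297 to 0.524 RPM, with overlap. It was lower in leaf (log2 difference -1.53 ± 0.43 SE, limma adjusted p = 0.00386), but with each library scaled to the median table total the difference of -0.93 no longer passed (adjusted p = 0.115). Its host mRNA went the other way, with 23.8 ± 11.4 scaled units in the 11 leaf libraries (SD) and 4.75 ± 1.08 in the 9 meristem and inflorescence libraries (SD; log2 difference 1.96 ± 0.26 SE, limma adjusted p = 1.10e-06).

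The other 5 of the 10 broadest were found in 17 or 18 libraries, and none passed the leaf test. Zmcirc082428 (Zm00014a042406), Zmcirc082758 (Zm00014a014357) and Zmcirc082671 (Zm00014a029022) had means of 0.0863, 0.0710 and 0.0690 RPM, and Zmcirc085596 (Zm00014a013980) 0.0894 RPM, all on Mo17. The hosts of these 4 gave 19, 5, 1 and 5 other circRNAs in Mo17. Zmcirc062375 (1233 bp, Zm00001d026425, B73 chromosome 10, 145558452 to 145559684) had a mean of 0.154 RPM and reached 0.687 RPM in husk leaf. It was the only circRNA listed for its host in F1, and B73 had none from that host, although the host mRNA averaged 3.79 ± 2.35 deposited units in B73 leaf (SD, n = 11) and 3.23 ± 0.652 in B73 meristem and inflorescence (SD, n = 9).

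**Figure D2:**
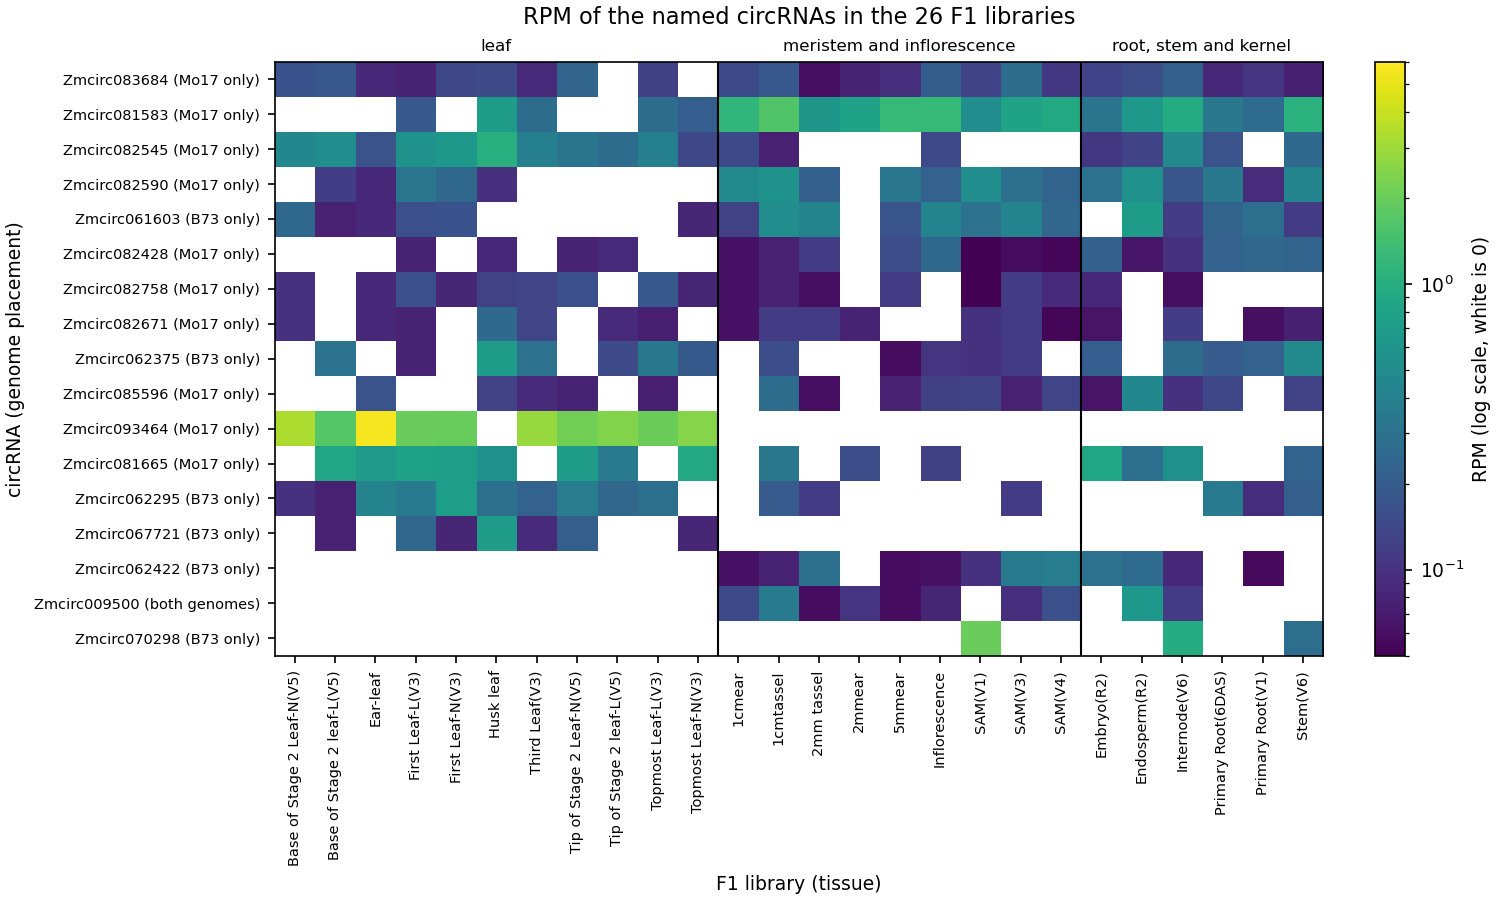
RPM of 17 named circRNAs (rows, with genome placement) in the 26 F1 libraries (columns, leaf left, then meristem and inflorescence, then root, stem and kernel), in colour on a log scale, with white for 0. Zmcirc093464 is filled in 10 leaf libraries and in no other, Zmcirc081583 is filled in all 9 meristem and inflorescence libraries, and Zmcirc083684 is filled in 24 of 26.

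Leaf libraries held fewer of these circRNAs than meristem and inflorescence libraries, while their share of the circRNA RPM was larger in leaf. The choice counted F1 libraries without regard to organ, and the tests permute organ over libraries. Absence from the parents was also part of the choice, and parental depth differed between organs. Implied reads per leaf library were 10508676 to 15895757 in B73 and 9998386 to 15741355 in Mo17. Per meristem and inflorescence library they were 12566139 to 21635597 in B73 and 14494629 to 22602216 in Mo17. The part of parental depth in these numbers and shares was not tested, so the p-values describe the chosen set only. The number per library ran from 91.0 over a median of 126 to 270 in leaf, and from 137 over 297 to 342 in meristem and inflorescence. The groups overlapped through the 2 mm ear alone: the other 8 meristem and inflorescence libraries held 286 to 342, above every leaf library, of which husk leaf was the highest. The means were 146 ± 51 in the 11 leaf libraries (SD) and 284 ± 57.6 in the 9 meristem and inflorescence libraries (SD), a difference of -138 (exact permutation test, two-sided, p = 0.000167, or 0.000250 adjusted over 3 organ comparisons). The lower number in leaf was not particular to this set. All recurring circRNAs numbered 3464 to 6920 per leaf library and 4779 to 8895 per meristem and inflorescence library.

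Depth differed between these groups, with 12247288 ± 1487519 implied reads in the 11 leaf libraries (SD) and 16377070 ± 2415453 in the 9 meristem and inflorescence libraries (SD). Counting only values of at least 0.0996 RPM, the worth of 1 read in the shallowest library, left 35 ± 17.6 per leaf library (SD, n = 11) and 64.3 ± 19.2 per meristem and inflorescence library (SD, n = 9; exact permutation p = 0.00352). As a share of all recurring circRNAs in the library, those in neither parent made up 3.21 ± 0.394% in the 11 leaf libraries (SD) and 3.58 ± 0.309% in the 9 meristem and inflorescence libraries (SD). That difference passed narrowly (exact permutation p = 0.0363, adjusted 0.0363). With values of at least 0.0996 RPM it was -0.119 points (exact permutation p = 0.505), and with values of at least 0.2 RPM it was 0.0823 points, of opposite sign (exact permutation p = 0.286). It was also lost with the L and N libraries of a leaf position averaged (exact permutation p = 0.0815, 7 leaf units) and on leaving out any of 9 single libraries, namely the topmost leaf with suffix N, the third leaf, the stage 2 leaf tip with suffix L, the stage 2 leaf base with either suffix, the shoot apical meristem at V4, the 5 mm ear, the 1 cm ear or the 1 cm tassel (exact permutation p up to 0.0686).

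As a share of the summed RPM of recurring circRNAs the order was the opposite. CircRNAs in neither parent supplied 1.12 ± 0.149% in the 11 leaf libraries (SD; 0.878% to 1.39%) and 0.811 ± 0.0951% in the 9 meristem and inflorescence libraries (SD; 0.645% to 0.973%), a difference of 0.309 percentage points (exact permutation p = 3.57e-05, adjusted 0.000107). The summed RPM of these circRNAs itself was not tested and stood at 18 ± 4.64 RPM per leaf library (SD, n = 11) and 25.8 ± 5.25 RPM per meristem and inflorescence library (SD, n = 9). All recurring circRNAs together had 1642 ± 555 RPM per leaf library (SD, n = 11) and 3200 ± 646 RPM per meristem and inflorescence library (SD, n = 9), so the larger share stands on a smaller total. Zmcirc093464 supplied part of the difference in share. Without it the shares were 0.952 ± 0.108% in the 11 leaf libraries (SD) and 0.811 ± 0.0951% in the 9 meristem and inflorescence libraries (SD), with a difference of 0.141 points (exact permutation p = 0.00597).

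The 6 root, stem and kernel libraries ran from 194 to 396. The internode at V6 held 396 of the circRNAs, more than any other F1 library, followed by the 1 cm ear with 342 and the endosperm at R2 with 338. The stem at V6 held 291, the embryo at R2 237, and the primary roots 212 at V1 and 194 at 6 days. In the internode they made up 4.33% of recurring circRNAs and 1.13% of the summed RPM.

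**Figure D3:**
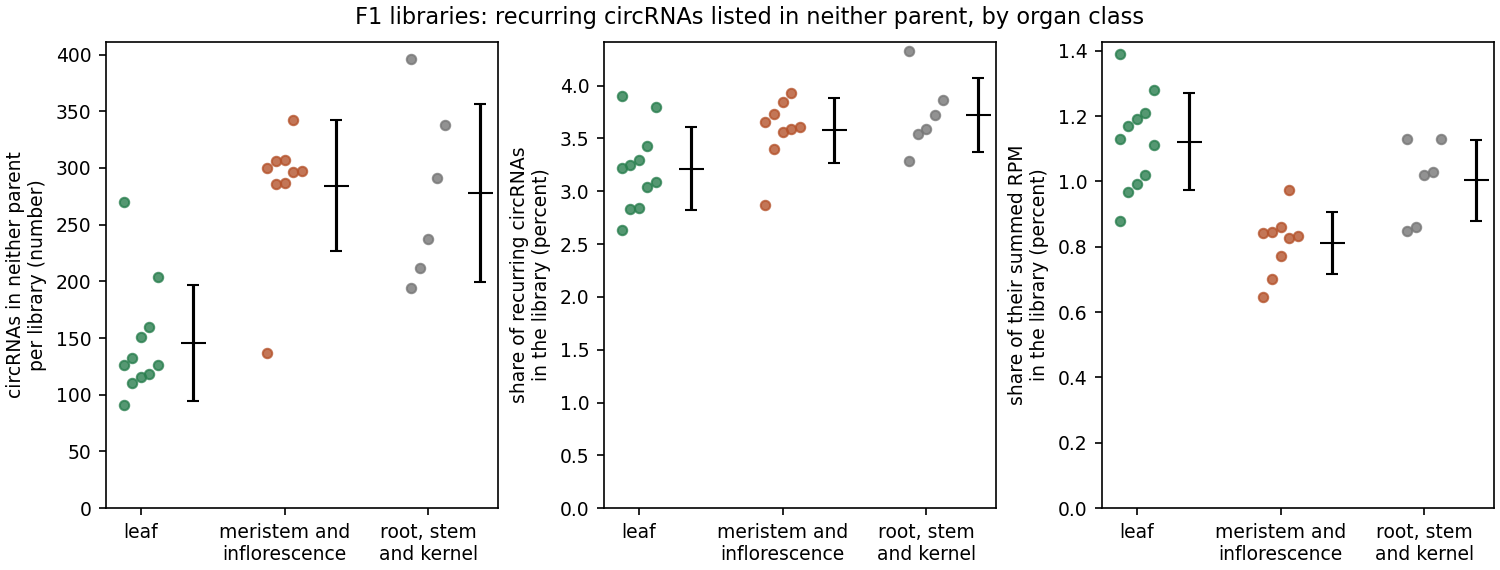
Recurring circRNAs in neither parent in each F1 library (points), with the mean and SD of each organ class (black), as a number (left), as a percent of recurring circRNAs in that library (middle) and as a percent of their summed RPM (right). Leaf is below meristem and inflorescence on the left, at 146 against 284, and above it on the right, at 1.12% against 0.811%.

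Restricted to circRNAs found in exactly 3 libraries, the spread over organs was close to that of circRNAs listed in a parent. All 3 libraries were leaf for 5.35% of those in neither parent and 4.63% of those in a parent. They were all meristem and inflorescence for 10.8% and 11.5%. No leaf library was among them for 45.4% of those in neither parent and 50% of those in a parent, and leaf and meristem and inflorescence occurred together for 35.6% and 34.9%. Over all breadths, 27% of those in neither parent were found in all 3 organ classes, against 56.1% of those in a parent, with a median of 3 libraries against 6.

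Single circRNAs were compared between leaf and meristem and inflorescence by limma over the whole F1 table. Only circRNAs above 0 in at least 5 of the 20 libraries could be tested, which left 132 of the 1465 (9.01%). Of these, 12 were called higher and 38 lower in leaf at an adjusted p below 0.05. Of the 12, 9 were at 0 in all 9 meristem and inflorescence libraries, and of the 38, 25 were at 0 in all 11 leaf libraries. These 9 and 25 could be tested only through the organ where they were found, so the counts are a description. Over all 8760 circRNAs tested, 7.33% were called higher and 38.6% lower, beside 9.09% and 28.8% of the 132. A group was at 0 in every library for 34 of the 132 and for 1051 of all 8760 tested. The median log2 difference was -0.44 over the 132 and -0.57 over all tested. Both stayed the same with circRNAs at 0 throughout a group set to their bound. Scaling each library to the median table total gave 12 higher and 28 lower of the 132, and 963 higher and 2282 lower of all, against 642 and 3380 unscaled.

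The leaf circRNA with the highest level was Zmcirc093464, a ring of 281 bp from Zm00014a039738 on Mo17 chromosome 3, 224423938 to 224424218. It had the highest mean and the highest single value of the whole set. In leaf it ranged from 0 in husk leaf over a median of 2.16 to 5.64 RPM in the ear leaf, and the other 9 leaf libraries lay between 1.71 and 3.35 RPM. All 9 meristem and inflorescence libraries and all 6 root, stem and kernel libraries were at 0. Its leaf mean, 2.43 ± 1.36 RPM (SD, n = 11), was at least 119-fold higher than in meristem and inflorescence, with 3 reads over those 9 libraries, 0.0204 RPM, as the floor. It could enter the organ comparison only through leaf, so this is a description with no test.

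The host of Zmcirc093464 was higher in leaf too. Its F1 mRNA averaged 1419 ± 1378 scaled units in the 11 leaf libraries (SD) and 0.414 ± 0.372 in the 9 meristem and inflorescence libraries (SD; log2 difference 9.02 ± 0.66 SE, limma adjusted p = 1.29e-10), and in Mo17 it averaged 810 ± 555 TPM in the 11 leaf libraries (SD) and 0.990 ± 0.495 TPM in the 9 meristem and inflorescence libraries (SD). The host gave 19 other circRNAs in Mo17, which summed to 5.23 ± 2.65 RPM in Mo17 leaf (SD, n = 11) and 0 in the 9 Mo17 meristem and inflorescence libraries. The nearest of these, Zmcirc093463, averaged 0.759 RPM over the 26 Mo17 libraries and differed from Zmcirc093464 by 659 bp at its farther end. The acceptor of Zmcirc093464 was used by other circRNAs of the host in Mo17, and its donor by none. At 0.847 RPM over the pooled F1 libraries, its level was at least 115-fold higher than in Mo17.

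The 3 others among the 5 largest leaf differences, beside Zmcirc082545, were smaller. Zmcirc081665 (Zm00014a005582, Mo17 chromosome 4, 179122465 to 179123410) had a leaf median of 0.652 RPM, with 3 of 11 leaf libraries at 0, and a meristem and inflorescence median of 0 (log2 difference 2.05 ± 0.54 SE). Zmcirc062295 (Zm00001d038328, B73 chromosome 6, 154622614 to 154624428) had a leaf median of 0.291 RPM against 0 (log2 difference 1.80 ± 0.43 SE). Zmcirc067721 (Zm00001d029785, B73 chromosome 1, 86775217 to 86775585) was found in 7 leaf libraries and nowhere else, with 0.708 RPM in husk leaf as its highest value, and was at least 6.69-fold higher in leaf, with no test since it entered the comparison only through leaf. Zmcirc082545, Zmcirc081665 and Zmcirc062295 were each above 0 in 3 of the 9 meristem and inflorescence libraries. They too reached the 5 libraries required only with the help of leaf, so their differences are descriptions with no test. The hosts of Zmcirc081665, Zmcirc062295 and Zmcirc067721 were higher in leaf in mRNA too, while that of Zmcirc082545 did not pass.

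Among the 5 largest differences in the other direction, beside Zmcirc081583, Zmcirc082590 and Zmcirc061603, 2 were at 0 in all 11 leaf libraries. Zmcirc062422 (405 bp, Zm00001d047472, B73 chromosome 9, 131250227 to 131250631) reached 0.377 RPM in the shoot apical meristem at V4 and was at least 6.93-fold lower in leaf. A parental circRNA of that host, Zmcirc024841, lay within 9 bp at both ends and averaged 0.00450 RPM in B73. Zmcirc009500 had the highest mean of those placed on both genomes, 0.0707 RPM, and was at least 5.38-fold lower in leaf. It was highest in endosperm, at 0.643 RPM. Its host was Zm00001d002726, and a parental table lists its position on 1 genome under another identifier. Both entered the organ comparison without any leaf library, so these folds are descriptions with no test.

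The highest single value outside leaf belonged to a circRNA of 3 libraries. Zmcirc070298 (335 bp, Zm00001d034547, B73 chromosome 1, 295997822 to 295998156) stood at 2.00 RPM in the shoot apical meristem at V1, 0.970 RPM in the internode and 0.283 RPM in the stem, and at 0 in the other 23 libraries. Its host mRNA was lower in leaf, with 1.51 ± 2.24 scaled units in the 11 leaf libraries (SD) and 319 ± 129 in the 9 meristem and inflorescence libraries (SD; limma adjusted p = 7.96e-13). The nearest parental circRNA, Zmcirc041154, was 27 bp away at its farther end and was found in 1 B73 library. It averaged 0.101 RPM over the 26 B73 libraries, beside 0.125 RPM for Zmcirc070298 over the 26 F1 libraries.

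Host mRNA was measured apart from the circRNAs and had no part in the choice. The circRNAs in neither parent came from 1301 host genes, of which 1293 could be tested in F1 mRNA. Of these, 386 were higher and 594 lower in leaf by limma, or 29.9% and 45.9%. Over all 40719 genes tested, 32.5% were higher and 42.2% lower. Values as deposited, without scaling between libraries, gave 123 hosts higher and 1013 lower (all genes, 6079 and 28593). The median log2 difference over all genes was -1.22 as deposited and -0.18 scaled, so the balance of directions depends on the scaling. Of the 12 circRNAs called higher in leaf, 11 had a host higher in leaf and none a host lower. Of the 38 called lower in leaf, 29 had a host lower, 4 a host higher and 5 a host that passed in neither direction. Among the 12 and the 38, 9 and 25 could be tested only through the organ where they were found. These counts of hosts are thus a description, and those for all called circRNAs are not given here.

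More circRNAs in neither parent were placed on B73 only than on Mo17 only in most F1 libraries. The mean was 118 ± 51.7 for B73 only and 89.2 ± 32.8 for Mo17 only (SD, n = 26), a difference of 28.6 per library, with B73 ahead in 22 libraries, Mo17 in 3 and 1 even (sign-flip permutation test, two-sided, p = 2.00e-05, the smallest these draws can give). This test is against an even split. Of all circRNAs listed for F1, 37314 were placed on B73 only and 25935 on Mo17 only. The p-value thus does not set these circRNAs apart from the others of F1. B73 only made up 56% of the single-genome circRNAs in neither parent per library, against 59.7% of those listed in a parent, so the excess was no larger than in that set. With values of at least 0.2 RPM the difference was -1.04, of opposite sign (permutation p = 0.106). In summed RPM the difference of 0.537 did not pass (permutation p = 0.368). Mo17 had the higher sum in all 11 leaf libraries, at 7.25 ± 2.43 RPM for B73 only and 9.69 ± 2.20 RPM for Mo17 only (SD, n = 11). Without Zmcirc093464 the leaf sums were 7.25 ± 2.43 RPM for B73 only and 7.26 ± 2.68 RPM for Mo17 only (SD, n = 11), and over all 26 libraries the difference was 1.56 RPM (permutation p = 0.000240). The number of single-genome circRNAs also depends on the genomes, gene sets and parental libraries of each side, which cannot be told apart here.

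The balance of the genomes differed between organs, in a comparison added after seeing the data. B73-only circRNAs made up 52.2 ± 2.98% of the single-genome circRNAs in neither parent in the 11 leaf libraries (SD; 48.3% to 57.5%) and 58.3 ± 3.38% in the 9 meristem and inflorescence libraries (SD; 52.1% to 62.9%), a difference of -6.11 points (exact permutation p = 0.000845). With the L and N libraries averaged it was -6.45 points (exact permutation p = 0.00175). Among recurring circRNAs listed in a parent, the same libraries gave 59.8 ± 0.479% in the 11 leaf libraries (SD) and 59.9 ± 0.258% in the 9 meristem and inflorescence libraries (SD), a difference of -0.104 points that did not pass the same test (exact permutation p = 0.567). The gap between the 2 sets itself differed between the organs by -6 points (exact permutation p = 0.00113). Counting only values of at least the largest step of 1 read, those in neither parent gave 42.6 ± 10.6% in the 11 leaf libraries (SD) and 52.3 ± 3.91% in the 9 meristem and inflorescence libraries (SD; exact permutation p = 0.00436). Depth differed between the organs too, and its part in this difference was not tested beyond that limit. Absence from the matching parent was part of the choice, and the depth of the parental libraries differed by organ and by parent. The part of parental depth was not tested either, so these p-values describe the chosen set only. The balance also varied with breadth. In neither parent, 501 were on B73 only and 306 on Mo17 only at 3 libraries, and 16 and 26 at 10 to 19. Among those listed in a parent the numbers were 1869 and 1418 at 3 libraries, and 1757 and 1151 at 10 to 19. The sets were not matched for breadth here, and its part in the difference was not tested.

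**Figure D4:**
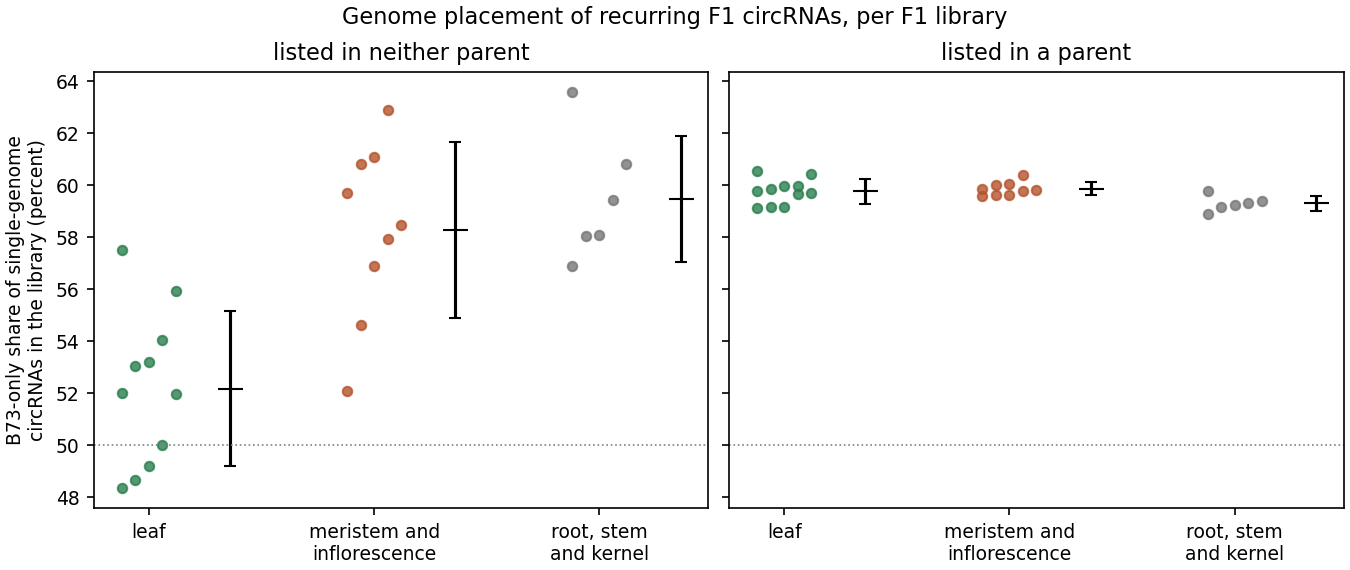
B73-only share, in percent, of the single-genome recurring circRNAs of each F1 library (points, with mean and SD in black), for circRNAs in neither parent (left) and for those listed in a parent (right). On the left leaf averages 52.2% and meristem and inflorescence 58.3%, while on the right they average 59.8% and 59.9%.

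The host genes of these circRNAs usually gave other circRNAs in a parent. Since the parental tables entered the choice, this is a description. Those placed on both genomes were set against B73. Of the 1465, 1339 (91.4%) came from a host with another circRNA in the matching parent, against 94.6% of the recurring circRNAs listed in a parent. Those that overlapped another parental circRNA of the host numbered 1232 (84.1%). The median circRNA had 7 others of its host in the parent, against 8. For the other 126 of the 1465, no circRNA of the host was listed in the matching parent, 62 on B73 only, 54 on Mo17 only and 10 on both genomes. Host mRNA was above 0 in every B73 mRNA library for 94.5% of the B73 hosts, and in every Mo17 mRNA library for 92.0% of the Mo17 hosts, close to the 96.4% and 94.1% of hosts of recurring circRNAs listed in a parent. Over all genes in those tables it was 53.3% and 57.9%.

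Breadth differs between the sets, so the same shares were taken over circRNAs found in exactly 3 F1 libraries. A host with another parental circRNA then stood behind 93.2% of the B73-only circRNAs in neither parent and 93.0% of those in a parent, and behind 91.5% and 92.9% for Mo17 only. Splice sites were often reused. Of the 501 B73-only circRNAs in neither parent, 34.3% had both their acceptor and their donor in other parental circRNAs of the host and 47.7% had 1 of them, against 37.6% and 43.6% of the 1869 listed in a parent. Of the 306 on Mo17 only, 32% had both and 41.2% had 1, against 35.5% and 45.7% of 1418. Neither site was shared, hosts without a parental circRNA included, by 26.8% of those on Mo17 only in neither parent and 18.8% of those in a parent, while on B73 only it was 18% and 18.9%. These shares were not tested.

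**Figure D5:**
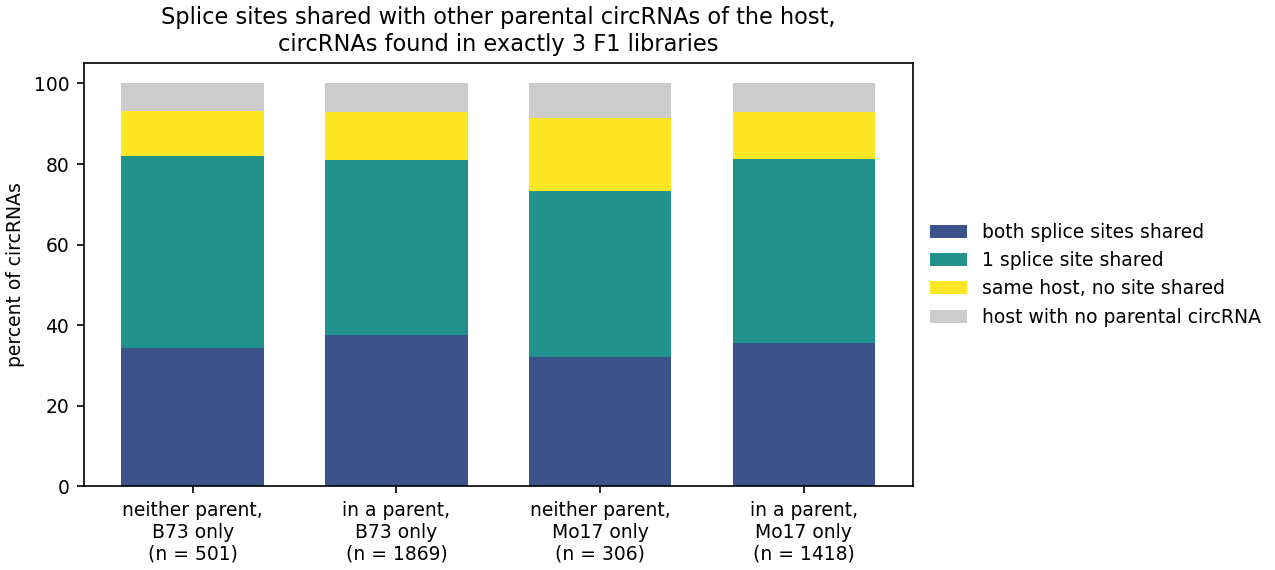
Percent of circRNAs found in exactly 3 F1 libraries whose splice sites occur in other circRNAs of the same host in the matching parent, for circRNAs in neither parent and listed in a parent, by genome. The bottom (blue) segment, both sites shared, makes up 34.3% and 37.6% on B73 and 32% and 35.5% on Mo17.

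The median span was 1217 bp, against 1260 bp for circRNAs in a parent, with lower and upper quartiles of 606 and 2348 bp against 642 and 2552 bp. The longest span was 61864 bp. The span is that of the genome between the junction's ends, introns included. By genome the median span was 1369 bp on B73 only and 1076 bp on Mo17 only, against 1258 bp and 1163 bp for circRNAs listed in a parent. More than 10000 bp was spanned by 54 of the B73-only circRNAs (6.78%) and 14 of the Mo17-only ones (2.57%), against 4.91% and 3.12% of circRNAs listed in a parent.

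Some of these circRNAs lay close to a parental junction. A parental circRNA of any host lay within 10 bp at both ends for 64 of the 1465. For 20 of the 1465, all placed on both genomes, a parental table lists the same position on 1 genome under another identifier. Of these 20, 10 came from a single host, Zm00001d002726 on B73 chromosome 2, which had more of these circRNAs than any other host. Its 10 shared 1 start, 20520694, and had 10 ends between 20521066 and 20521138. F1 listed 105 circRNAs of this host and B73 listed 32. Its F1 mRNA averaged 0.0173 ± 0.0350 scaled units in the 11 leaf libraries (SD) and 52 ± 18 in the 9 meristem and inflorescence libraries (SD).

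Most hosts gave a single circRNA to the set, 1175 of 1301, while 103 gave 2 and 23 gave 3 or more. After Zm00001d002726 came Zm00001d040166 on chromosome 3, with 5 such circRNAs among 153 listed in F1 and 115 in B73. Zm00001d027259 on chromosome 1 gave 4 of 36 in F1, with 21 in B73, and Zm00001d043667 on chromosome 3 gave 4 of 34, with 31 in B73. Zm00001d034823 on chromosome 1 gave 4 of 11 in F1, with 11 in B73, and all 4 spanned more than 10000 bp, from 10441 to 15561 bp.

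Most circRNAs placed on a single genome had a host with no partner in the deposited list of gene pairs. Whether the other genome lacks such a gene is not shown by that list. A paired host was listed for 142 of the 797 B73-only circRNAs (17.8%) and 34 of the 544 on Mo17 only (6.25%), close to the 17.6% and 5.87% of circRNAs in a parent. The paired gene gave a circRNA in the other parent for 123 and 25 of them. A circRNA of the paired gene with a span within 10 bp was listed there for 6 on B73 only and 1 on Mo17 only.

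A separate deposited table of back-splice reads, named for the 1 cm tassel and tied to no single labelled sample, held 2539 junctions on B73. Of the 921 circRNAs in neither parent that were placed on B73, 11 had a junction in it, or 1.19% (exact 95% interval 0.598% to 2.13%). The shares were 14.9% (14.3% to 15.5%) of the 12877 recurring circRNAs in a parent, and 0.305% (0.238% to 0.385%) of the 22980 circRNAs in neither parent found in 1 or 2 F1 libraries. These sets were chosen by presence in the parental tables and in F1 libraries, so their differences may follow from the choice. The intervals treat each circRNA as independent, and the shares are a description. Of the 11 junctions, 10 had 1 read and Zmcirc062065 (Zm00001d018657, chromosome 7, 2057230 to 2057760) had 2. In the F1 1 cm tassel 3 of the 11 were above 0, each at 0.0786 RPM, and in the F1 1 cm ear 1 was, Zmcirc064741 at 0.0632 RPM. The line and organ behind that table are uncertain.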

How the data were processed

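Per the submitters' processing notes, reads were handled with HISAT, StringTie, TopHat and SAMtools on B73 RefGen v4, and the source column of the deposited annotation names circexplorer2. The order and settings of these tools were not given in the sources used here. The circRNA tables hold RPM as the authors deposited them. Their values include fractions of 1 read, so they could not be turned back into whole reads for a count test. The Mo17 mRNA table holds TPM as the authors deposited it, and the deposited B73 and F1 mRNA tables name no unit. The back-splice table holds a count of junction reads as deposited by the authors. In all, 1 file, of linear reads, was not used.

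The members and lists were chosen with earlier results of these data known. Libraries were grouped into organ classes by their labelled tissue, and 1 sample without a labelled group entered no comparison. Numbers and shares per library were compared by exact permutation tests, and genomes by sign flips over 100000 draws. Single circRNAs were tested with limma 3.58.1 (R 4.3.3, trend, Benjamini-Hochberg at 0.05) on log2(RPM + 0.0494), the smallest F1 value above 0, where at least 5 of 20 libraries were above 0. Host mRNA was tested likewise on log2(value + 1) after median-ratio scaling, keeping genes that reached 1 in 3 or more libraries. A log2 difference on such a scale understates the change of low circRNAs. The limma step was tested on simulated data. Python 3.11.15, numpy 2.4.6, scipy 1.17.1, pandas 2.3.3 and matplotlib 3.10.9 were used. Tables of F1, B73 and Mo17 were normalised separately, so no test was made between them, and levels set across them are descriptions.

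Named circRNAs are the 10 in the most F1 libraries, the 5 largest called differences in each direction, the highest mean of each genome class and the 3 highest single values. Named hosts are theirs and the 5 with the most circRNAs in the set. CircRNAs of the back-splice table were named after their values were seen. Intervals and the limit of 3 reads cover counting error only and take the smallest value of a library as 1 read. Alternatives varied the number of libraries required, a minimum of 0.2 RPM, the read step, pseudocounts, filters, scaling, trend, averaging of L and N libraries, and each library left out.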

Additional observations from a re-analysis of the deposited data

Results flagged for a closer look

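Of 22 sets of values examined for a library far from the others of its organ class, 5 held one, and chance gives about 1 in 20. The 5 fell on the 2 mm ear and the 1 cm tassel alone and are not independent. That rate thus cannot tell whether 5 is more than chance gives. The 2 mm ear was the lowest of the 9 meristem and inflorescence libraries, with 137 of the circRNAs in neither parent, and also in their share of recurring circRNAs, at 2.87%. The 1 cm tassel was the highest of these 9 libraries for Zmcirc085596 at 0.273 RPM, for Zmcirc081665 at 0.338 RPM and for Zmcirc009500 at 0.367 RPM.

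The B73-only percent of single-genome circRNAs in neither parent was lower in leaf than in meristem and inflorescence (difference -6.11 points, exact permutation p = 0.000845), in a comparison added after seeing the data. The difference from circRNAs listed in a parent was itself tested (exact permutation p = 0.00113), without matching the sets for breadth. The part of parental depth, which bears on the choice, was not tested.

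The back-splice table named for the 1 cm tassel, which lies outside the tables of the 3 lines, held reads of 11 of these circRNAs.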

How the results depend on the processing

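Requiring 2 or more F1 libraries gave 5345 circRNAs in neither parent, 5 or more gave 269, and at least 0.2 RPM in 3 libraries gave 30, against 1465. The share of circRNAs, leaf minus meristem and inflorescence, was 0.0823 points and of opposite sign with values of at least 0.2 RPM (exact permutation p = 0.286). It was -0.119 with values of at least the largest step of 1 read (p = 0.505 by the same exact test), -0.325 with L and N libraries averaged (exact p = 0.0815), -0.319 without circRNAs listed in a parent under another identifier (exact p = 0.0612), and -0.455 to -0.308 on leaving out single libraries. B73 only minus Mo17 only per library was 0.537 in summed RPM (permutation p = 0.368) and -1.04 circRNAs, of opposite sign, with values of at least 0.2 RPM (permutation p = 0.106). With mRNA values as deposited, 123 hosts were higher and 1013 lower in leaf. Zmcirc061603 no longer passed with libraries scaled to the table total (limma adjusted p = 0.115). The cause of these changes was not tested. Of the other recomputed values, 146 for comparisons and counts and 59 for single circRNAs kept their direction and side of the threshold, or for counts stayed within 1.5 times. No paired analysis was possible because the sample numbers only count tissues within an organ class and tie no leaf library to a meristem and inflorescence library. The comparison of genomes was made within each library. Most values stood at 1 read, which limits what presence or absence in a library shows.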
